A study of Mus musculus with 9 samples.

Results

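The genes described here are the Rab GTPases measured in MLP29 cells, together with the proteins that lipid-modify, carry, activate and read them, among them melanophilin (Mlph), the synaptotagmin-like proteins and the class V myosins. Members were taken by gene symbol, and 71 of the 12393 genes with a value of their own on the array belonged, with 133 of 22626 probe sets. They comprised 50 Rab GTPases, 11 effectors and motors, 3 genes of Rab prenylation, 3 genes of Rab recycling and membrane delivery, and 4 regulators of the GTPase cycle. MLP29 is 1 line of mouse liver progenitor cells, so replicates were experiments on a single line. In each of 3 experiments, RNA was hybridised to Affymetrix Mouse430A_2 arrays from 3 conditions. Antibody-treated cells had received 10 µg/ml of BMB5, a monoclonal antibody that blocks the fibronectin receptor α5β1 integrin. HGF/SF1-treated cells had received 20 ng/ml of hepatocyte growth factor, the ligand of the Met receptor. Untreated cells had received neither agent. Cells of all 3 conditions were first starved in 0.1% serum for 16 h or longer, and treatment lasted 24 h. The study's methods name an immunoglobulin control without tying it to the arrays, whose controls are labelled untreated, so on these labels the effect of adding an immunoglobulin and the effect of the blockade cannot be told apart. The question put to the Rab genes was how far each stimulus of cell scattering was accompanied by a change in the transcripts of membrane traffic.

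Rab proteins are small GTPases that sit on the membranes of the secretory and endocytic pathways, each on its own set of compartments. In the GTP-bound form they recruit effectors, which tether vesicles, attach them to motors or prepare them for fusion. A new Rab becomes membrane-bound after an escort protein, encoded by Chm in mammals, presents it to the Rab prenyltransferase made of the Rabggta and Rabggtb subunits. GDP dissociation inhibitors, such as Gdi2, then extract and return it through successive cycles. The best known chain of effectors is that of pigment cells, where Rab27a on the melanosome binds melanophilin, and melanophilin binds the actin motor myosin Va (Myo5a). Rab17, an epithelial Rab, is known for its part in traffic through recycling endosomes in polarised cells. In epithelia such as those of liver ducts, Rab proteins direct transport to the apical and basolateral surfaces and the recycling of integrins.

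Of the GTPases, Rab17 had the most negative change after the antibody, and of the effectors Mlph, and these genes lie near each other on chromosome 1 with 1 protein-coding gene, Prlh, between them. Their start regions are shown because no other pair of called members was so close. The windows run from 250 bases before to 50 bases after the annotated start and were taken from RefSeq on GRCm38.p6. The Mlph window is chr1:90914850-90915149 on the plus strand and the Rab17 window is chr1:90967618-90967917 on the minus strand, both written 5′ to 3′ along the gene. Capitals mark the motif CACGTG, an E-box.
Mlph: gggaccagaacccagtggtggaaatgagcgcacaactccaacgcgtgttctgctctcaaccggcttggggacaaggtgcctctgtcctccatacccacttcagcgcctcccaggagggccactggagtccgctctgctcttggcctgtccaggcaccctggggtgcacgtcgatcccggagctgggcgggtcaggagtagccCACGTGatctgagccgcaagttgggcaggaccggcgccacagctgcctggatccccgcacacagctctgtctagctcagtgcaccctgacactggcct
Rab17: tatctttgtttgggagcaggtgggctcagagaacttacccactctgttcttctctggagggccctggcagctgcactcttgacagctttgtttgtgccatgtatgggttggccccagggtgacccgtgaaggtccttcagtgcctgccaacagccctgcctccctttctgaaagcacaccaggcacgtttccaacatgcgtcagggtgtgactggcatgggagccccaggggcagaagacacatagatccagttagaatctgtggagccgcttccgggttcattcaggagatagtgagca
The motif CACGTG, which is its own reverse complement, was searched on both strands. A second E-box, CATGTG, was searched likewise, as was the AP-1 motif TGANTCA, with N for any base. The Mlph window held CACGTG 1 time, beginning 48 bases before the start, and neither of the other motifs. The Rab17 window held none of the 3, so no matches overlapped. CACGTG was present in 7.15% of 32851 RefSeq windows of the same length and in 8 of 79 windows of member genes (10.1%). For CATGTG the shares were 14.2% of all windows and 8.86% of member windows, and for TGANTCA 7.81% and 2.53%. These matches are descriptions of letters, and 60 of the 71 members had a window in the table.

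The values are log2 summaries per probe set, so a difference of 1 is a doubling of signal, and they were similar in scale over the 9 arrays, whose medians ranged from 5.91 to 6.08. Each gene is described by its brightest probe set, and signal is not read as an order of transcript levels between genes because probes differ in how well they hybridise. Members were called higher or lower where limma's unadjusted two-sided p was under 0.05, a threshold the study used without saying whether p was adjusted, and adjusted p-values over all 22626 probe sets are given beside. Markers of cell types were also read, as lists whose mean signals are likewise not an order of transcript levels. Of 12 epithelial and liver progenitor markers measured, 0 were called after either treatment, and their mean log2 value per array was 7.45 to 7.57 in antibody-treated, 7.50 to 7.63 in HGF/SF1-treated and 7.49 to 7.66 in untreated cells. Between antibody-treated and HGF/SF1-treated cells 1 of the 12 was called, Sox9, higher with the antibody (0.96, SE 0.38, limma adjusted p = 0.326). Of 9 melanocyte markers, 1 was called after the antibody, Mitf, higher by 0.67 on the log2 scale (SE 0.18), and the 9 averaged 4.36 to 4.46 on antibody, 4.28 to 4.37 on HGF/SF1 and 4.17 to 4.35 on untreated arrays. Of 10 macrophage markers, 1 was called after the antibody, the lysosomal protein Cd68, higher by 2.60 (SE 0.65), and the list averaged 5.26 to 5.37 on antibody, 5.11 to 5.15 on HGF/SF1 and 5.06 to 5.12 on untreated arrays. Of 8 fibroblast markers 0 were called. The part of other cell types in the results below was not tested.

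After the antibody, 11 of the 71 members were called (15.5%), against 12.6% of all 12393 genes. Mlph was lower by the widest margin, Rab17, Rabif, Sytl2, Rab4a and Rab31 were lower as well, and both prenyltransferase subunits, Rabggta and Rabggtb, Rab32, Myo5a and Rab28 were higher. Higher calls numbered 5 (7.04%, against 4.68% of all genes) and lower calls 6 (8.45%, against 7.92%). The share of members called was thus near that of the array as a whole, and the median change of the 71 members, 0.040, was near that of all genes, -0.0018. None of the 71 passed an adjusted p of 0.05 in limma, the lowest being 0.188. All 11 moved in the same direction in 3 of 3 experiments. In 10 of them the 3 antibody arrays did not overlap the 3 untreated arrays, and over all members this held for 16 of 71 (22.5%), against 15% of all genes. The 11 were called on these same arrays, so their agreement is partly built into the choice and is no separate support.

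**Figure D1:**
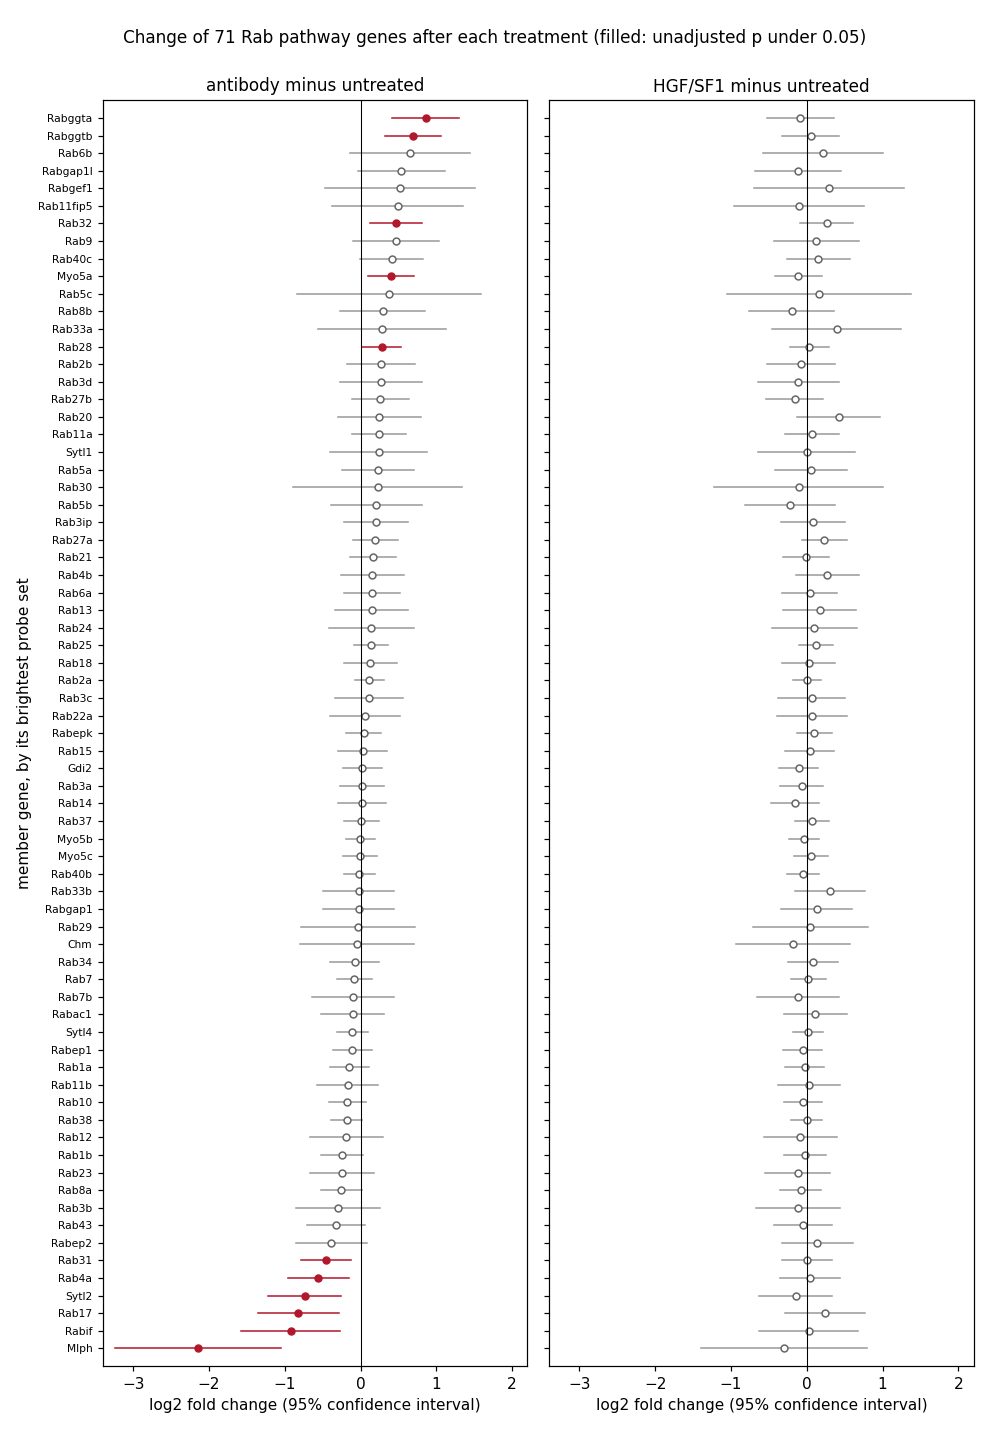
Log2 change of each of the 71 members by its brightest probe set (horizontal axis, with 95% confidence intervals from limma), antibody minus untreated on the left and HGF/SF1 minus untreated on the right, in the same order of genes. Filled points mark members called at an unadjusted p under 0.05, of which there were 11 on the left and 0 on the right.

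Among the effectors, Mlph, the linker between Rab27 and myosin V, was measured by a pair of probe sets, which did not move alike. The brighter one read 8.66, 6.92 and 6.78 in antibody-treated cells of experiments 1, 2 and 3, against 9.08, 9.67 and 9.14 in HGF/SF1-treated cells and 9.62, 10.03 and 9.14 in untreated cells. All 3 antibody arrays were below every other array, and that of experiment 1 was by far the closest to them. The means were 7.45 ± 1.05 in antibody-treated, 9.30 ± 0.33 in HGF/SF1-treated and 9.60 ± 0.45 in untreated cells (SD, n = 3 each). The change of Mlph after the antibody was thus -2.14 on the log2 scale (SE 0.48, limma adjusted p = 0.188), or 4.42-fold lower, and the call held in every refit that left out 1 array or 1 experiment, with changes of -2.75 to -1.66. Its dimmer probe set read 7.40, 7.72 and 7.62 in antibody-treated cells, 6.73, 7.42 and 7.26 in HGF/SF1-treated cells and 6.94, 7.54 and 7.08 in untreated cells. These ranges overlapped, and the change was 0.39 in the opposite direction (SE 0.22, limma adjusted p = 0.551). With the experiment as a block, this probe set was called higher (adjusted p = 0.156). Averaging both probe sets gave -0.87 (adjusted p = 0.249). What part of the transcript each probe set reads was not given in the sources used here. In RNA from whole cultures, a lower level in every cell and a loss from some of the cells cannot be told apart.

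**Figure D2:**
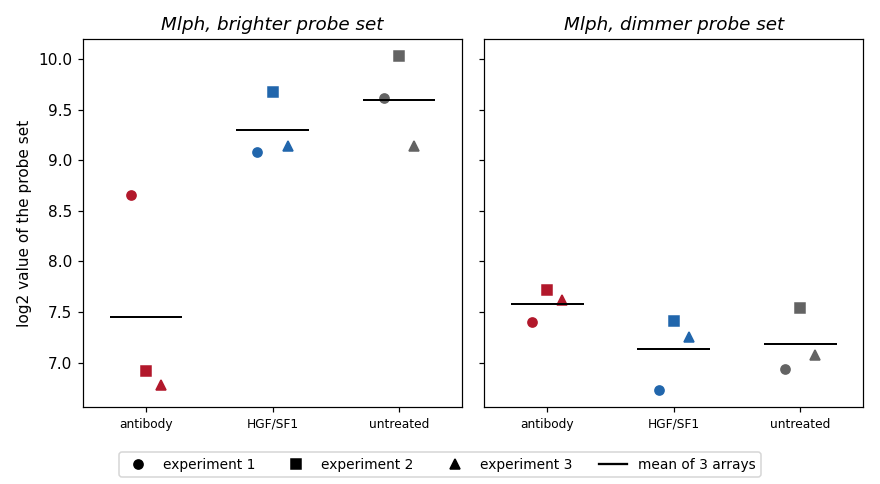
Log2 values of both Mlph probe sets on each of the 9 arrays (vertical axis) by condition, with symbols for the experiment and a bar for the mean of 3 arrays. In the brighter probe set the antibody arrays lie below the rest, at 8.66, 6.92 and 6.78, while in the dimmer one the conditions overlap.

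Rab27a, the GTPase that melanophilin binds, was dim on its 3 probe sets. The brightest of them read 4.41, 4.22 and 4.05 in antibody-treated, 4.29, 4.32 and 4.18 in HGF/SF1-treated and 3.91 to 4.23 in untreated cells, and its antibody change of 0.19 (SE 0.13) was not called. Its paralog Rab27b read 8.30, 8.22 and 8.52 in antibody-treated, 8.21, 7.76 and 7.82 in HGF/SF1-treated and 8.23, 7.84 and 8.20 in untreated cells. The antibody arrays of Rab27b overlapped the untreated ones (0.26, SE 0.16) and lay just above the HGF/SF1 ones (0.42, SE 0.16, limma adjusted p = 0.326).

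Myo5a, the motor of the same chain, was called higher. It read 8.30, 8.58 and 8.61 in antibody-treated, 8.10, 8.10 and 7.75 in HGF/SF1-treated and 8.17, 8.11 and 8.01 in untreated cells. The antibody arrays lay above all others, with experiment 1 again nearest to them. The change was 0.40 (SE 0.14, limma adjusted p = 0.302), and the second Myo5a probe set gave 0.45 (SE 0.14). The call was lost, at changes of 0.30 to 0.36, without experiment 2, without experiment 3, or without any of the antibody arrays of experiments 2 and 3 and the untreated array of experiment 3. Myo5b and Myo5c, the class V myosins of other epithelial routes, gave low signal, with means over all arrays of 3.56 and 3.40, and changed by -0.0058 and -0.011 after the antibody.

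Of the synaptotagmin-like proteins, which tether Rab27-bearing vesicles at the plasma membrane, Sytl2 was called lower. Its values were 8.44, 8.48 and 8.54 in antibody-treated, 9.27, 9.25 and 8.70 in HGF/SF1-treated and 9.38, 9.48 and 8.80 in untreated cells. The antibody arrays hardly varied and lay below every other array, while in experiment 3 the other conditions also read low. The change was -0.74 (SE 0.21, limma adjusted p = 0.238), and the call was lost without experiment 1 (-0.63) or experiment 2 (-0.60). Sytl1, at 4.74, 4.94 and 5.88 in antibody-treated and 5.11, 4.98 and 4.76 in untreated cells, was raised in experiment 3 alone and not called (0.24, SE 0.28). Sytl4 was dim and changed by -0.11 (SE 0.087). Sytl3 and Sytl5 had no probe set of their own in the annotation used and were not analysed here. Rabep1 and Rabep2, which encode Rab5 effectors of early endosomes, and Rab11fip5, a Rab11 effector, changed by -0.11, -0.39 and 0.49 and were not called.

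Among the 50 Rab GTPases, 5 were called after the antibody (10.0%, against 12.6% of all genes). These were 2 higher (4.0%, against 4.68% of all genes) and 3 lower (6.0%, against 7.92%). Rab17 gave 6.83, 6.43 and 6.29 in antibody-treated cells, 8.08, 7.45 and 7.20 in HGF/SF1-treated cells and 7.32, 7.47 and 7.21 in untreated cells. Every antibody array lay below every other array, and the change was -0.82 on the log2 scale (SE 0.23, limma adjusted p = 0.234), or 1.77-fold lower. Without experiment 2 the call was lost (-0.71), and the second Rab17 probe set gave -0.31 (SE 0.21) with overlapping arrays. Rab4a, a Rab of fast recycling from early endosomes, gave 6.69, 5.96 and 6.44 in antibody-treated, 7.08, 6.88 and 6.91 in HGF/SF1-treated and 6.88, 6.99 and 6.88 in untreated cells. Experiment 2 showed the largest drop, and the change of -0.56 (SE 0.17, limma adjusted p = 0.272) was not called without experiment 2 (-0.32) or experiment 3 (-0.61). Both Rab4a probe sets were called lower, the second with a change of -0.46 (SE 0.16). Its paralog Rab4b was not called and gave 0.15 (SE 0.18).

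Rab31, which serves traffic between the trans-Golgi network and endosomes, was lower by a similar amount in each experiment. It gave 8.72, 8.96 and 8.62 in antibody-treated, 9.41, 9.28 and 8.99 in HGF/SF1-treated and 9.23, 9.34 and 9.10 in untreated cells. The change was -0.46 (SE 0.14, limma adjusted p = 0.275), and it was no longer called without experiment 1 (-0.43) or with the mean of its probe sets (-0.42). Of the higher GTPases, Rab32, known from mitochondria and from lysosome-related organelles, gave 10.46, 10.65 and 10.16 in antibody-treated, 10.36, 10.16 and 10.12 in HGF/SF1-treated and 9.93, 10.12 and 9.80 in untreated cells. The antibody arrays lay above the untreated ones (0.47, SE 0.15, limma adjusted p = 0.275) and overlapped those of HGF/SF1. That call was lost without the antibody array of experiment 2 (0.36) and without experiment 1 or experiment 2 (0.44 each). Its relative Rab38, which acts with Rab32 in melanosome formation, differed in direction, at -0.19 (SE 0.092), and was not called. Rab28, with 9.79, 9.88 and 9.53 in antibody-treated, 9.49, 9.52 and 9.46 in HGF/SF1-treated and 9.53, 9.49 and 9.35 in untreated cells, had the smallest change of the 11 (0.28, SE 0.11, limma adjusted p = 0.385). It was the single called member whose antibody and untreated arrays overlapped, and 8 of the refits without 1 array or 1 experiment lost the call, at changes of 0.20 to 0.29, as did limiting the fit to bright probe sets or to the 6 arrays compared (0.28 each).

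**Figure D3:**
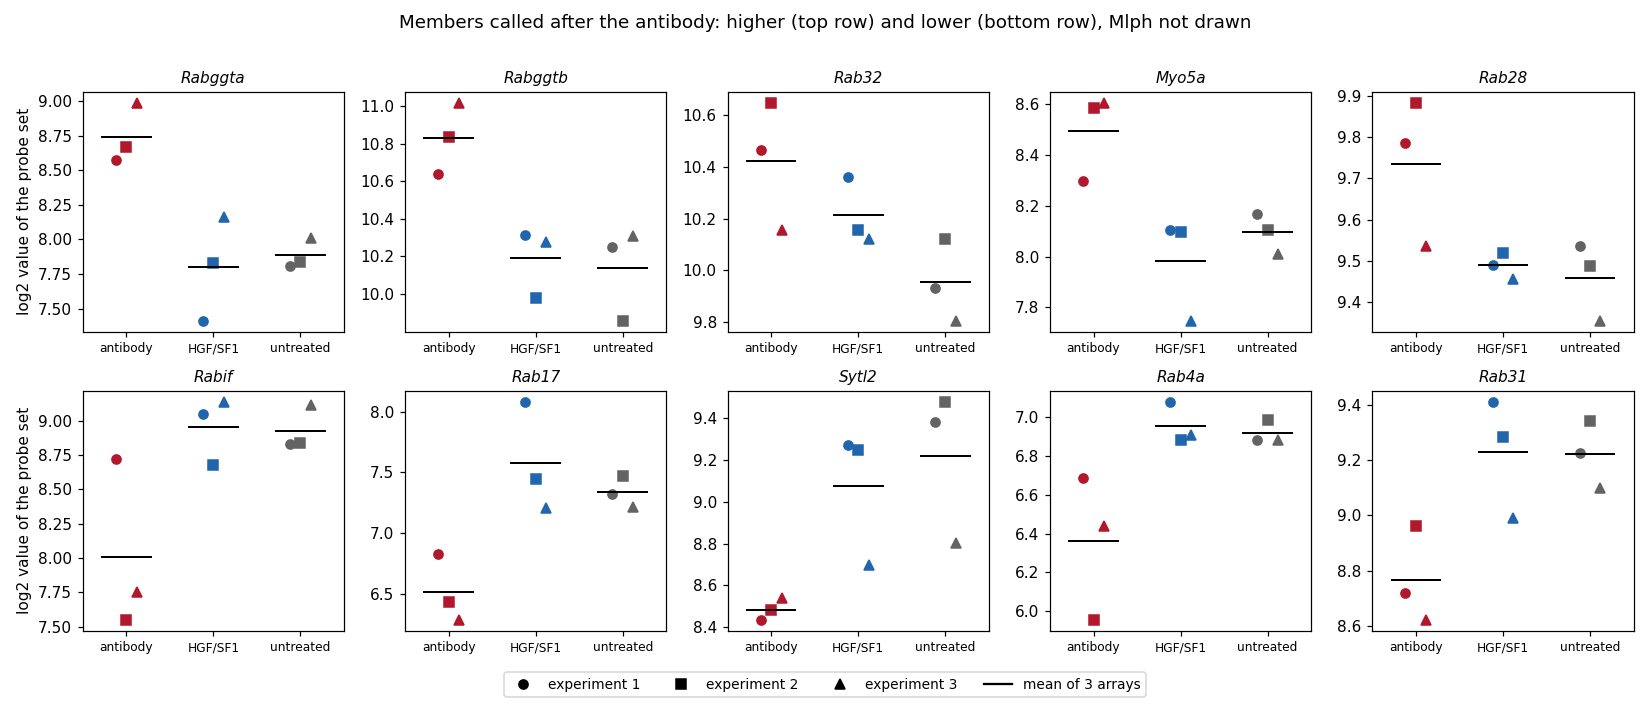
Log2 values on each of the 9 arrays for the 10 called members other than Mlph, with antibody-treated, HGF/SF1-treated and untreated cells from left to right, a symbol per experiment and a bar for the mean of 3 arrays. The vertical scale differs between panels. In 9 of the 10 panels the antibody arrays do not overlap the untreated ones, the exception being Rab28.

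The other 45 Rab GTPases were not called, and all members not called had changes of -0.39 to 0.65. Rab5a, Rab5b and Rab5c, the Rabs of early endosomes, changed by 0.23, 0.21 and 0.38 with SEs of 0.21, 0.26 and 0.53. Rab1a and Rab1b, which act between endoplasmic reticulum and Golgi, changed by -0.15 and -0.24, and Rab7, of late endosomes, by -0.083. The Golgi Rab Rab6a changed by 0.15 (SE 0.16) and its paralog Rab6b by 0.65 (SE 0.34). Rab14 and Rab2a changed by 0.014 and 0.11, and Rab3c, with low signal, by 0.11. Rab8a and Rab8b, which direct vesicles to the plasma membrane, changed by -0.26 (SE 0.12) and 0.29 (SE 0.25). Rab11a, the main Rab of the recycling endosome, was read differently by its probe sets. The brighter one changed by 0.25 (SE 0.16) and was not called. The dimmer one read 7.74, 6.67 and 7.36 in antibody-treated, 7.89, 8.09 and 8.11 in HGF/SF1-treated and 7.85, 7.93 and 8.30 in untreated cells, and was called lower (-0.77, SE 0.25, limma adjusted p = 0.288). Of the 37 members with several probe sets, 17 had all of them on 1 side of 0. That count takes signs alone, also of changes near 0 that were not called. Among the 7 called members with several probe sets, 6 had all on 1 side, Mlph being the exception. Of the 62 dimmer probe sets of members, 4 were called after the antibody, 1 each of Myo5a, Rab4a, Rab11a and Rab2a. For Rab2a the brightest probe set changed by 0.11 and the mean of its probe sets by -0.090, so they did not all share a direction. By the brightest probe set 12.6% of all genes were called, and the share over all dimmer probe sets is not given here.

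Of the 3 prenylation genes, both enzyme subunits were called higher and the escort protein was not. Rabggta, the alpha subunit of the enzyme that attaches the lipid anchor to Rabs, read 8.58, 8.67 and 8.99 in antibody-treated, 7.41, 7.83 and 8.16 in HGF/SF1-treated and 7.81, 7.84 and 8.01 in untreated cells. Its antibody arrays lay above all others, and the change in experiments 1, 2 and 3 was 0.77, 0.83 and 0.98. Over the 3 experiments the mean change was 0.86 (SE 0.19, limma adjusted p = 0.194), or 1.81-fold. Rabggtb, the beta subunit, read 10.64, 10.84 and 11.02 in antibody-treated, 10.32, 9.98 and 10.28 in HGF/SF1-treated and 10.25, 9.86 and 10.31 in untreated cells. It too was above all other arrays on the antibody, by 0.69 (SE 0.16, limma adjusted p = 0.196) or 1.61-fold. Neither call was lost in any refit without 1 array or 1 experiment, with changes of 0.74 to 0.94 for Rabggta and 0.55 to 0.84 for Rabggtb. Each subunit was measured by 1 probe set. Chm, the escort protein of the same reaction, gave 6.58, 7.74 and 6.91 in antibody-treated and 7.17, 6.94 and 7.26 in untreated cells, which overlapped (-0.049, SE 0.33).

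Of the recycling and delivery genes, Rabif was called lower. It encodes Mss4, a protein that binds Rabs free of nucleotide. Its values were 8.72, 7.55 and 7.75 in antibody-treated, 9.05, 8.67 and 9.14 in HGF/SF1-treated and 8.83, 8.84 and 9.12 in untreated cells. The drop lay almost wholly in experiments 2 and 3, at -1.28 and -1.37, with -0.11 in experiment 1. The mean change was -0.92 (SE 0.29, limma adjusted p = 0.270), it was not called without experiment 2 (-0.74) or experiment 3 (-0.70), and the second Rabif probe set gave -0.47 (SE 0.37). Gdi2, which returns Rabs to the cytosol, was bright and changed by 0.023 (SE 0.11), and Rabac1, a receptor that releases Rabs from it, by -0.11 (SE 0.18). None of the 4 members grouped here as regulators of the GTPase cycle, among which Rabif was not counted, was called by limma. Rabgap1l, a GTPase-activating protein, read 7.36, 8.38 and 8.13 in antibody-treated and 7.17, 7.51 and 7.58 in untreated cells (0.54, SE 0.25), and Rabgef1, the exchange factor of Rab5, changed by 0.52 (SE 0.43).

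The number of members called varied with the arrays and experiments included, as did the share of all genes called. In 7 of the 11 called members the smallest change was that of experiment 1. Without its antibody array 19 of the 71 members were called (against 18.7% of all genes), including 10 of the 11. Of these 19, Mlph, Rab4a, Rabgap1l and Rabif passed an adjusted p of 0.05. Without experiment 1 as a whole, Mlph, Rab17 and Rabif passed it. Without experiment 2, by contrast, 4 of the 71 were called (against 3.89% of all genes), Mlph, Rab31, Rabggta and Rabggtb. With the experiment as a block, 17 of the 71 were called (against 18.5% of all genes), all 11 and a further 6. The further 6 were Rabgap1l, Rab6b, Rab11fip5 and Rab8b, higher, and Rab1b and Rab43, lower. None of the 17 passed an adjusted p of 0.05 in that fit.

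After HGF/SF1, 0 of the 71 members were called at limma's unadjusted p, against 0.839% of all genes, and the lowest adjusted p was 1.0. Changes ran from -0.30 for Mlph to 0.42 for Rab20, a Rab known from phagosomes and from cells short of oxygen. Rab20 read 6.59, 6.07 and 6.49 in HGF/SF1-treated and 5.82, 5.94 and 6.13 in untreated cells, which overlapped (SE 0.24). In the 11 members called after the antibody, the change after HGF/SF1 was at most 0.30 in either direction. The median distance from a member's change to its 95% confidence limit was 0.41, and the interval of 65 of the 71 lay within 1 log2 unit of 0 on both sides, so changes below about 0.41 were mostly not detectable with 3 arrays per condition. With the experiment as a block 0 members were called as well. Rab27a was called higher without experiment 1 (0.31) and without the untreated array of experiment 1 (0.33), and Rab20 without the antibody array of experiment 3, which here serves the variance alone, and in a fit to the 6 arrays compared (0.42 each). The HGF/SF1 and untreated arrays did not overlap for 1 member (1.41%, against 3.94% of all genes), Rabepk, at 8.05, 8.11 and 8.11 in HGF/SF1-treated and 8.02, 7.93 and 8.02 in untreated cells, a change of 0.098. Among the 62 dimmer probe sets of members 1 was called, of Rabep1 (-0.28), and the share over all dimmer probe sets is not given here.

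The antibody-treated cells were also compared directly with HGF/SF1-treated cells, which tests whether the response of a gene differed between the stimuli. Here 12 of the 71 members were called (16.9%, against 14.1% of all genes). Of these, 5 were higher (7.04% of members, against 5.19% of all genes) and 7 lower (9.86%, against 8.96%). Among the 12 were 9 of the 11 called against untreated cells. Rabggta (0.94, SE 0.19), Rabggtb (0.64, SE 0.16), Myo5a (0.51, SE 0.14), Rabgap1l (0.65, SE 0.25) and Rab27b were higher in antibody-treated cells. Mlph (-1.84, SE 0.48), Rab17 (-1.06, SE 0.23), Rabif (-0.95, SE 0.29), Rab4a (-0.60, SE 0.17), Sytl2 (-0.59, SE 0.21), Rabep2 (-0.53, SE 0.21) and Rab31 (-0.46, SE 0.14) were lower. None passed an adjusted p of 0.05 in limma, the lowest being 0.128 for Rabggta, but with the experiment as a block Rabggta (adjusted p = 0.0417) and Rab17 (adjusted p = 0.0478) did. In that fit 18 of the 71 members were called (against 20.3% of all genes), and 10 of the 71 were called higher (against 8.73% of all genes). The further 6 were Rab11fip5 (0.59), Rab8b (0.49), Rab5b (0.43), Rab2b (0.34) and Rab28 (0.25), higher, and Rab1b (-0.22), lower. The 2 members called against untreated but not against HGF/SF1-treated cells were Rab32 (0.21, SE 0.15) and Rab28 (0.25, SE 0.11). The HGF/SF1 arrays entered this comparison and the untreated arrays the one before, while the antibody arrays were common to both, so the lists are not independent. The count was 20 of 71 without experiment 1 (against 19.3% of all genes), 7 of 71 without experiment 2 (against 5.79%) and 7 of 71 without experiment 3 (against 8.53%). Without experiment 1, limma's adjusted p was under 0.05 for Mlph, Rab17, Rabgap1l and Rabif. Without its antibody array alone, this held for the same genes and for Myo5a, Rab4a and Rabggta. The share of all genes passing in those refits is not given here. The calls of Rabggta, Rabggtb and Rab17 held in every refit without 1 array or 1 experiment. Mlph was not called without experiment 2 (-1.39), Rab31 without experiment 1 (-0.34), and Myo5a (0.34), Rab4a (-0.66) and Rabif (-0.73) without experiment 3. Sytl2, Rabep2, Rabgap1l and Rab27b lost the call in 6 such refits each, with changes of -0.59 to -0.47, -0.57 to -0.42, 0.44 to 0.69 and 0.28 to 0.44. With the mean of a gene's probe sets Rabgap1l (0.38), Rab27b (0.44) and Rab31 (-0.36) were not called, nor was Rabgap1l in a fit to the 6 arrays compared (0.65).

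**Figure D4:**
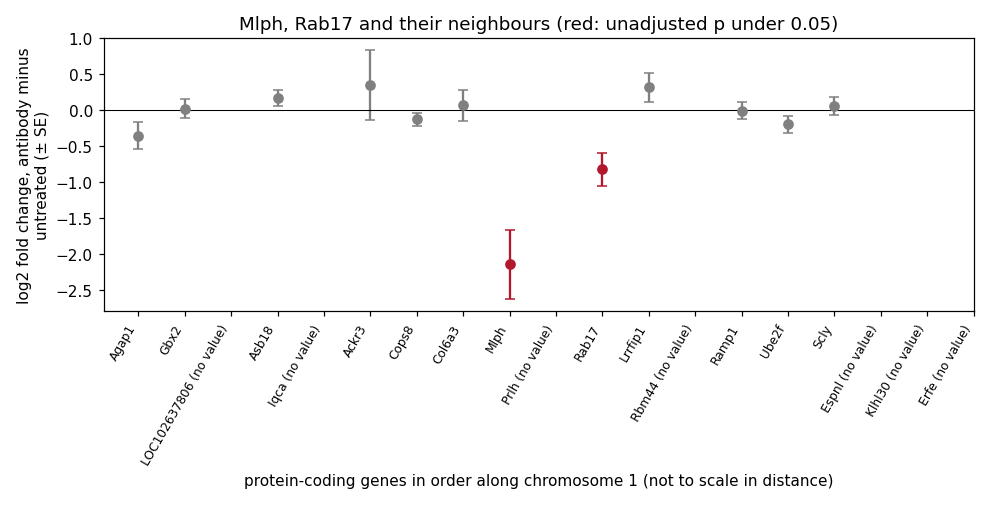
Log2 change, antibody minus untreated, with its SE (vertical axis) of Mlph, Rab17 and the protein-coding genes around them in their order along chromosome 1, from 8 before Mlph to 8 after Rab17. Only Mlph and Rab17 were called, the 10 measured neighbours lay between -0.35 and 0.35, and genes marked as having no value were not measured.

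Because Mlph and Rab17 are neighbours, the genes on either side of them were also read, a choice made after the values of both had been seen. Of the 8 protein-coding genes before Mlph, the 8 after Rab17 and Prlh between them, 10 had a value. None of the 10 was called after the antibody by limma at an unadjusted p under 0.05, and their changes lay between -0.35 for Agap1 and 0.35 for Ackr3. The adjacent Col6a3 and Lrrfip1 changed by 0.068 (SE 0.21) and 0.32 (SE 0.20). Prlh itself had no value. The other members with at most 1 gene between them, Myo5a and Myo5c, changed by 0.40 and -0.011.

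Outside the members, 99 of 164 listed genes of membrane traffic were measured, and 19 were called after the antibody (19.2%, against 12.6% of all genes), 7 higher and 12 lower, with 0 called after HGF/SF1. Most of these were SNAREs, the proteins that fuse vesicles with their target membranes, of which 10 of 33 were called, 3 higher and 7 lower, at a median change of -0.20 over all 33. The lower ones included SNAREs of the route from endoplasmic reticulum to Golgi. Bet1 averaged 6.65 ± 0.14 in antibody-treated and 7.58 ± 0.14 in untreated cells (SD, n = 3 each). Gosr2 averaged 8.85 ± 0.098 in antibody-treated and 9.49 ± 0.077 in untreated cells (SD, n = 3 each). Their changes, -0.93 for Bet1 and -0.64 for Gosr2, had limma adjusted p-values of 0.122 and 0.137. Stx5a, Sec22b, Bet1l, Sec22a and Stx2 were also lower, with changes of -0.51, -0.33, -0.43, -0.84 and -1.03. Higher were Vamp4, Stx7 and Stx12, with changes of 0.40, 0.45 and 0.25. Without experiment 2, 7 of the 99 genes were called (against 3.89% of all genes), 4 of them SNAREs. Without experiment 3, 6 of the 33 SNAREs were called, and the share of all genes in that refit is not given here. Without the antibody array of experiment 1 the 19 came to 29 (against 18.7% of all genes), as they did with the experiment as a block (against 18.5%). Of the other lists, exchange factors had 0 of 20 called, GTPase-activating proteins 3 of 18, further Rab effectors 4 of 23 and exocyst subunits 2 of 5, among them Exoc8, with a change of -1.28 (SE 0.33, limma adjusted p = 0.213).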

How the data were processed

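RNA of 9 samples was measured, 3 per condition. Per the study's methods, the authors ran rma background correction on the 9 arrays in affylmGUI. What they deposited is 1 log2 expression value per probe set and array. Normalization between arrays and the summary method are not given in the sources used here, and the values were used as deposited. Control probe sets (64) were left out of 22690. Probe sets naming 1 gene (20380) gave genes, each by its brightest probe set over all arrays. A mean per condition was fitted to all probe sets with limma 3.58.1 in R 4.3.3 (lmFit, eBayes), with Benjamini-Hochberg adjustment over 22626 probe sets, after the procedure was tested on simulated data. With 3 arrays per condition, precision is limited by their number.

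Conditions and experiments came from the titles, where 1 day is shared by 3 arrays, 1 of each condition, so experiments pair the arrays. After condition means were removed, arrays of the same experiment correlated at r = 0.0958 to 0.591 (9 pairs) and of different experiments at -0.484 to 0.0308 (18 pairs). Deviations from a mean of 3 arrays cancel out within a condition, so the contrast between these ranges is partly built in. Alternatives were the experiment as a fixed or random block, centring on medians, a brightness filter, 6 arrays only, the mean of probe sets, and leaving out each array or experiment.

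The members and lists were chosen with earlier results of these data known. Named genes were the called members, every probe set of Mlph, the Rab27 axis, the prenylation and recycling genes, and the members with the 5 highest and 3 lowest mean signals, a choice for naming that does not order transcripts. Rab20, Rabepk, Rab38, paralogs, members called only with the block, Rab11a, Rabep1 and Rabgef1, neighbours and traffic genes were named in addition, after their values were seen.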

Additional observations from a re-analysis of the deposited data

How the results depend on the processing

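The counts of called members depended on how the experiment entered the fit. For antibody against untreated cells, 11 of the 71 members were called. The number was 17 with the experiment as a replicate block (9 higher) and 18 with a random block (8 higher and 10 lower). Leaving out arrays or experiments gave 4 to 19 (2 to 11 higher, 2 to 9 lower). Of all genes, 12.6% were called in the main fit and 18.5% with the replicate block. The share was 18.7% without the antibody array of experiment 1 and 3.89% without experiment 2, the refits with 19 and 4 members called. For the random block it is not given here. For antibody against HGF/SF1, the block gave 10 higher calls among the 71 members (against 8.73% of all genes). Beyond the members named in the report, the replicate block changed no other call, and the random block called Rab8a, Rab38 and Rab40c (0.41) after the antibody besides. Leaving out for antibody against HGF/SF1 gave 7 to 20 members (3 to 12 higher, 4 to 8 lower). Of all genes, 14.1% were called in the main fit of that comparison. Without experiments 1, 2 and 3 in turn the share was 19.3%, 5.79% and 8.53%. For HGF/SF1 against untreated cells, limiting the fit to the 6 arrays compared gave 1 member (1 higher), and leaving out gave 0 to 1 (0 to 1 higher, 0 to 0 lower). In the main fit of that comparison 0.839% of all genes were called. The other traffic genes, 19 of 99 after the antibody, came to 29 with the block and to 7 to 29 on leaving out. These counts stand beside the shares of all genes given above for antibody against untreated cells. After HGF/SF1 they numbered 1 with the block and 0 to 4 on leaving out, and for antibody against HGF/SF1 13 to 30, from 22. The cause of these shifts was not tested.

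Of the values of called members and probe sets, 131 kept direction and call under the other settings and 7 kept the direction alone, and on leaving out 223 and 53 did so, with 0 reversed. Reversals occurred among changes that were not called. With arrays centred on medians, Chm (0.0070), Myo5b (0.051) and Myo5c (0.045) changed sign after the antibody, and with the mean of probe sets Rab11a (-0.26), Rab2a (-0.090) and Sytl4 (0.035), as did Rab31 after HGF/SF1 (-0.066). On leaving out, the antibody changes that crossed 0 ranged from -0.47 to 0.22 for Chm, -0.039 to 0.095 for Gdi2, -0.033 to 0.034 for Myo5b, -0.079 to 0.10 for Myo5c, -0.078 to 0.099 for Rab14, -0.31 to 0.14 for Rabac1 and -0.21 to 0.54 for Sytl1. HGF/SF1 changes that crossed 0 ranged from -0.071 to 0.17 for Rabif, -0.086 to 0.12 for Rab31, -0.19 to 0.15 for the dimmer Mlph probe set, -0.014 to 0.43 for Rab17, -0.090 to 0.16 for Rabggtb, -0.023 to 0.068 for Rab28, -0.040 to 0.11 for Rab4a, -0.27 to 0.11 for Rabggta, -0.17 to 0.0049 for Myo5a and -0.36 to 0.041 for Sytl2. Dim probe sets, such as those of Rab27a, Myo5b and Myo5c, limit what these arrays show of their genes.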
